A study of Mus with 4 samples.

Results

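Neurons that carried transcripts of the peptide gene Crh together with the injury gene Atf3 were examined in dorsal root ganglia (DRGs) of mice whose sciatic nerve had been loosely ligated (chronic constriction injury, CCI). A barcode of the droplet libraries was taken as a neuron when it held at least 8000 UMIs (unique molecular identifiers, each standing for 1 captured transcript), under 20% of them mitochondrial, and when Snap25, Uchl1 and Tubb3 together gave at least 20 UMIs and more than Apoe and Fabp7. Crh-injured neurons were the neurons of the CCI libraries with at least 3 Crh UMIs and at least 1 per 10000 UMIs, at least 2 Atf3 UMIs and Pvalb under 3 per 10000. There were 67 of them among 3740 neurons and 37451 barcodes, 38 in CCI replicate 1 and 29 in CCI replicate 2. They were set against 432 other injured neurons of the same libraries (212 and 220), which had at least 2 Atf3 UMIs and Sprr1a at 10 per 10000 or more, and against the 939 and 247 neurons of the CON libraries. The CCI group held 2 libraries, from lumbar DRGs of male wildtype C57BL/6J mice of 8 weeks, 3 d after loose ligation of the left sciatic nerve, and the CON group held 2 libraries from naïve mice of the same kind without surgery. The labels and methods do not state the number of mice per library, so the spread behind each p-value may be technical. Against CON it is the spread between libraries. Between the injured classes it is the spread of the class difference over the 2 CCI libraries.

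Corticotropin-releasing hormone, the product of Crh, is a secreted peptide best known as the hypothalamic signal that starts the pituitary and adrenal stress response. It acts on the G protein-coupled receptors Crhr1 and Crhr2, which it shares with the urocortins (Ucn, Ucn2, Ucn3), and a binding protein (Crhbp) can hold it back from them. Sensory neurons of the DRG are divided by the size of their axons and the stimuli they detect, and after a cut or crush of the axon most of them switch on Atf3, a transcription factor, and Sprr1a, a protein linked to axon growth, while many of the genes that mark each type fall.

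The libraries held 135009606 and 113530798 UMIs in CCI and 75599766 and 52074235 in CON. Crh-injured neurons had a median of 85143.5 and 96760 UMIs in CCI replicates 1 and 2, and other injured neurons 77120 and 73741. The median neuron had 51264 and 70087 UMIs in CCI, against 42690 and 117346 in CON. The mitochondrial share had a median of 3.04% and 3.11% in Crh-injured neurons and of 2.58% and 2.40% in other injured neurons. Pairs of libraries shared 12 to 31 barcodes, and 1 Crh-injured neuron carried a barcode that both CCI libraries held.

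The genes that chose the neurons are given as a description. Crh, at chromosome 3, bases 19693401 to 19695396 of GRCm38, gave 5 to 212 UMIs in the 38 neurons of CCI replicate 1, with a median of 33.5, and 11 to 177 UMIs with a median of 50 in the 29 neurons of CCI replicate 2. As a rate the lowest, median and highest were 1.18, 5.99 and 21.0 per 10000 in replicate 1, and 1.36, 5.06 and 15.9 in replicate 2. Just outside the limit, 27 neurons of replicate 1 had at least 3 Crh UMIs but at most 0.970 per 10000, and the 5 such neurons of replicate 2 reached 1.01 per 10000, the highest of them left out by a Pvalb level of 3.38 per 10000. Atf3 had a median of 14.2 and 7.99 per 10000 in Crh-injured neurons and of 10.5 and 6.53 in other injured neurons. Every neuron that passed the Crh limits, 38 and 30 by library, also passed the Atf3 limit. Most CCI neurons passed the Atf3 limit, 81% and 87.35% by library, as did 39.2% and 30.4% of CON neurons. Sprr1a was not used to choose Crh-injured neurons. It reached 10 per 10000 in 27 of 38 and 23 of 29 of them, so the label "injured" rests on Atf3 for the other 11 and 6.

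**Figure D1:**
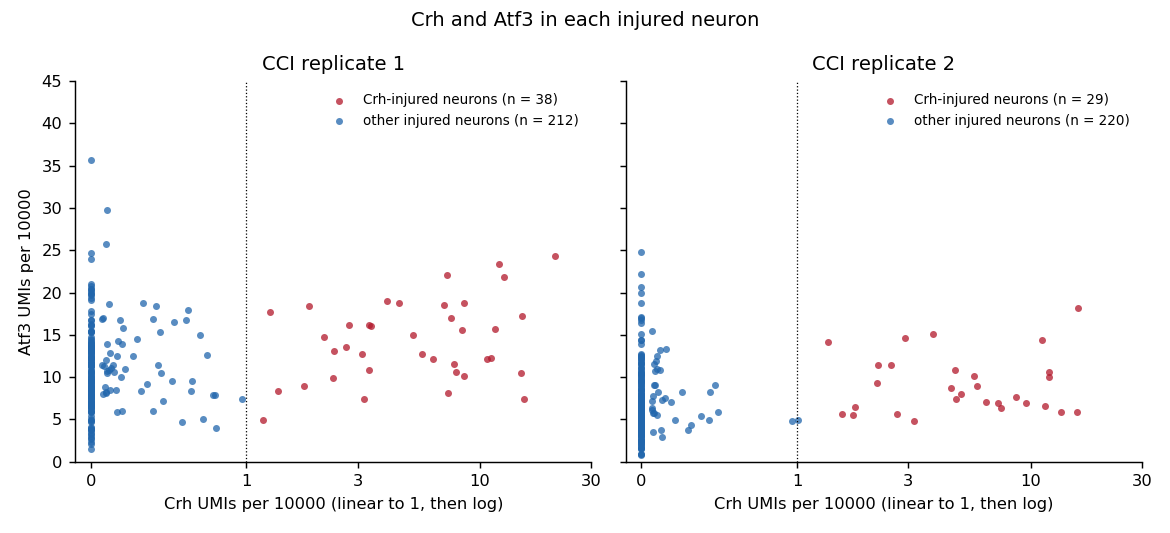
Crh UMIs per 10000 (x axis, linear to 1 and logarithmic above) against Atf3 UMIs per 10000 (y axis, linear) in each injured neuron of the 2 CCI libraries, with Crh-injured neurons in red, other injured neurons in blue and the Crh limit dotted. Both axes were used to choose the neurons, so the gap at 1 is set by the rule. Within the Crh-injured neurons the Crh rate ran to 21.0 per 10000 in replicate 1 and 15.9 in replicate 2.

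Crh-injured neurons made up 2.30% of the neurons of CCI replicate 1 (38 of 1653, exact 95% binomial interval 1.63 to 3.14%) and 3.22% of those of CCI replicate 2 (29 of 901, 2.17 to 4.59%). The mean was 2.76% ± 0.65 (SD, n = 2). No neuron passed the same limits in CON, with 0 of 939 (exact 95% binomial interval 0 to 0.392%) and 0 of 247 (0 to 1.48%). These intervals cover counting error only. Of the CON neurons 368 and 75 had at least 2 Atf3 UMIs, and 0 of these passed the Crh limits. Thinned to 8000 UMIs a neuron, the shares were 1.82% and 2.11% in CCI, and 0 neurons passed in either CON library.

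The spread of Crh reads over the libraries is likewise a description, since the Crh limits chose the neurons. The CCI libraries held 2474 and 2104 Crh UMIs in all, of which 82.3% and 85.4% fell in the 38 and 29 Crh-injured neurons, whereas the CON libraries held 5 and 3 Crh UMIs in all. In summed cells Crh stood at 702 and 676 CPM (UMIs per 1000000 non-mitochondrial UMIs) in Crh-injured neurons, 9.06 and 4.34 CPM in other injured neurons and 0.0724 and 0.0714 CPM in CON neurons. No single neuron carried the signal, since the richest held 10.4% and 9.85% of the Crh UMIs of its class. A Crh UMI was seen in 9.98% and 9.55% of CCI neurons, against 0.319% and 0.810% of CON neurons. As a measure of free RNA, 1.45% and 0.542% of the CCI barcodes with at least 8000 UMIs that were not neurons held a Crh UMI, at a median depth of 10488 and 10144.5 UMIs, against 0 of 379 and 0.0897% in CON. With neurons and other barcodes thinned to 8000 UMIs the shares were 4.11% and 3.89% in CCI neurons and 1.14% and 0.444% in the other CCI barcodes.

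The partners of CRH were followed next. Ucn, which encodes urocortin, a peptide that binds both CRH receptors, had 3.11 and 2.63 CPM in Crh-injured neurons, against 17.1 and 23.9 CPM in other injured neurons. Ucn was thus lower in the summed Crh-injured neurons of both libraries (log2 fold change -2.79 ± 0.26 SE, adjusted p = 0.00246, edgeR quasi-likelihood test with the library as a block). It was read in 8 of 38 and 3 of 29 Crh-injured neurons and in 59 of 212 and 76 of 220 other injured neurons. The highest rate was 0.179 and 0.289 per 10000 in Crh-injured neurons, against 4.39 and 7.74 in other injured neurons. In CON neurons Ucn stood at 0.0483 and 0.0714 CPM, and Crh-injured neurons were higher than CON (log2 fold change 5.70, adjusted p = 0.000371). In the 6 non-neuron classes of the CCI libraries Ucn ran from 9.52 to 22.4 CPM in replicate 1 and from 1.91 to 6.67 CPM in replicate 2. The Crh-injured neurons of both libraries, and the other injured neurons of replicate 1, lay no higher than these ranges, and only the other injured neurons of replicate 2 lay above them. The Ucn call was lost with every cell thinned to 8000 UMIs (adjusted p = 0.0676, edgeR quasi-likelihood test). The CPM ranges do not measure free RNA per neuron, since depth per cell differs between the classes. Ucn gave 9 UMIs in 38 and 7 in 29 Crh-injured neurons, against 162 in 2269 and 37 in 2737 satellite glia. Whether Ucn in Crh-injured neurons exceeded free RNA was not tested.

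The receptors and the binding protein were near or below what these sums can show. Crhr1 gave 2 and 1 UMIs in the Crh-injured neurons of CCI replicates 1 and 2 and Crhbp 0 and 2, all under the floor of 3 counts per library. Crhr2, Ucn2 and Ucn3 gave 0 UMIs in both libraries, where 3 counts correspond to 1.035 and 1.128 CPM. Crhr2 had 1.67 and 2.32 CPM in CON neurons, and it was called lower in Crh-injured neurons (adjusted p = 0.0151, edgeR quasi-likelihood test). Crhbp had 0.821 and 1.5 CPM in CON neurons and was not called. Expression of either receptor above the floor was not detectable in Crh-injured neurons at this depth.

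Against the other injured neurons, 898 of 12251 genes passed an adjusted p of 0.05 (7.33%), 411 of them higher in Crh-injured neurons (3.35%) and 487 lower (3.98%). This comparison asks how the Crh-injured neurons stood apart from neurons of the same libraries that passed the Atf3 and Sprr1a limits. The Sprr1a limit was not set on Crh-injured neurons, so the injury response of the classes was not matched. The higher genes included the opioid peptide gene Penk, the cholecystokinin receptor Cckar, the secreted protein gene Tafa4, the neurotrophin-3 receptor Ntrk3 and the touch channel Piezo2. The lower genes included the sodium-potassium pump modulator Fxyd7, the calcitonin gene-related peptide genes Calca and Calcb and the heat channel Trpv1. The neurofilament genes Nefh, Nefm and Nefl were also among them. The test took sums of UMIs per class and library, with 1 residual degree of freedom, and without the library term 179 genes passed. Without CCI replicate 1, 224 genes passed, of which 161 were among the 898, and without CCI replicate 2, 149 passed, of which 128 were. With every cell thinned to 8000 UMIs 121 passed, 115 of them among the 898. With no Sprr1a limit in the comparison neurons 4108 passed. Of these 734 were among the 898, and 713 of the 734 kept their direction. Penk, Cckar, Fxyd6, Tafa4, Ntrk3, Ccdc68, Slc6a19, 1700003F12Rik, Fxyd7, Pcp4l1, S100b and Adcyap1 passed in all 14 alternative settings run, while of the 84 called genes named here 43 lost the call without CCI replicate 1 and 57 without CCI replicate 2.

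Penk, which encodes the enkephalin precursor, had 202 and 86.9 CPM in Crh-injured neurons, against 16.1 and 23.4 CPM in other injured neurons. The log2 fold change was 2.83 ± 0.35 (SE, adjusted p = 0.00593). The level was uneven among the neurons, and 71.2% of the Penk UMIs of other injured neurons in replicate 2 came from 1 neuron. Penk was above 0 in 25 of 38 and 15 of 29 Crh-injured neurons and in 29 of 212 and 19 of 220 other injured neurons. In CON neurons it stood at 14.1 and 8.82 CPM.

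Fxyd6, a modulator of the sodium-potassium pump, had 515 and 484 CPM in Crh-injured neurons, against 87.5 and 94.7 CPM in other injured neurons (log2 fold change 2.47 ± 0.08 SE, adjusted p = 4.83e-05). Its relative Fxyd7 was the reverse, with 110 and 219 CPM in Crh-injured neurons and 997 and 1637 CPM in other injured neurons (log2 fold change -3.01 ± 0.08 SE, adjusted p = 3.34e-05). For both genes the sums differed in the same direction in each library. Fxyd7 was at 1 per 10000 or more in 10 of 38 and 9 of 29 Crh-injured neurons, against 163 of 212 and 184 of 220 other injured neurons.

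Cckar had 163 and 178 CPM in Crh-injured neurons, against 27.4 and 29.7 CPM in other injured neurons (log2 fold change 2.60, adjusted p = 4.93e-05). Tafa4 had 199 and 123 CPM in Crh-injured neurons, against 42.6 and 30.4 CPM in other injured neurons (2.14, adjusted p = 0.000244). Each was higher in both libraries, and each kept its call in all 14 alternative settings.

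Ntrk3 had 153 and 119 CPM in Crh-injured neurons, against 44.5 and 41.1 CPM in other injured neurons (log2 fold change 1.68, adjusted p = 0.00063). Slc6a19, a transporter of neutral amino acids, had 247 and 218 CPM in Crh-injured neurons, against 85.5 and 72.8 CPM in other injured neurons (1.58, adjusted p = 0.00032). 1700003F12Rik, a transcript without a named function, had 136 and 134 CPM in Crh-injured neurons, against 46 and 44 CPM in other injured neurons. CON neurons had 12.6 and 11.8 CPM of Slc6a19 and 0.338 and 0.250 CPM of 1700003F12Rik, below both injured classes in each library. Rgs5, Rarres1, Cmbl and Ccdc68 were also among the 12 genes with the largest higher fold change of those with a mean log2 CPM of 5 or more, at log2 fold changes of 2.02, 1.68, 1.6 and 1.52. The call of Rarres1 was lost in 4 of 14 settings, that of Rgs5 in 3 and that of Cmbl in 1.

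**Figure D2:**
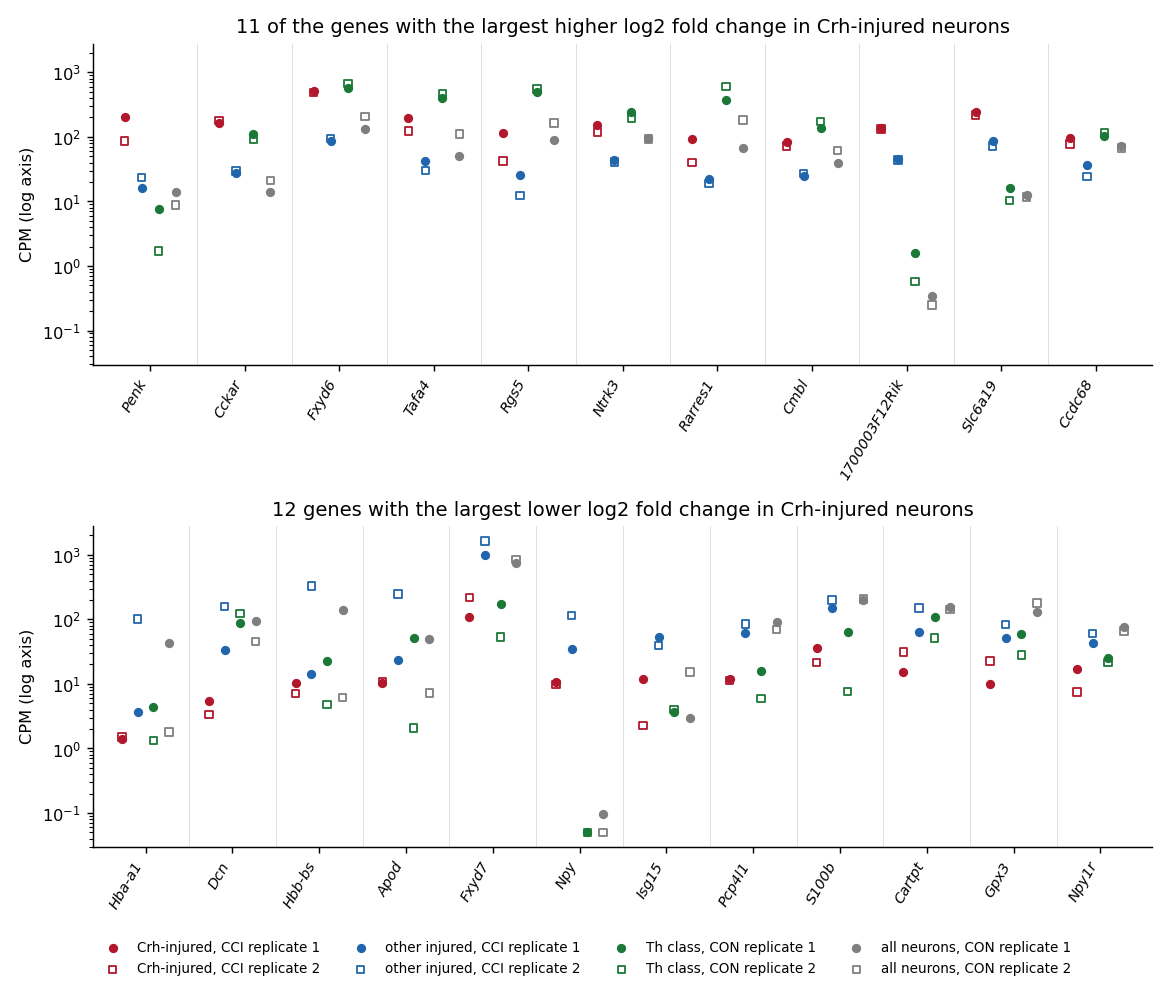
CPM (log axis) of 11 of the genes with the largest higher and the 12 with the largest lower log2 fold change in Crh-injured neurons, with 1 symbol for each library: Crh-injured neurons in red, other injured neurons in blue, CON neurons of the Th class in green and all CON neurons in grey. Values under 0.05 CPM are drawn at 0.05. Fxyd6, Tafa4 and Ntrk3 lay between the blue and the green symbols, whereas Penk, Slc6a19 and 1700003F12Rik lay above both CON groups.

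On the lower side, Npy, a peptide gene known for its induction in large injured DRG neurons, had 10.7 and 9.78 CPM in Crh-injured neurons, against 35.2 and 114 CPM in other injured neurons (log2 fold change -2.73, adjusted p = 0.00499). Its highest rate was 0.909 and 0.908 per 10000 in Crh-injured neurons, against 58.9 and 116 in other injured neurons. Cartpt, a peptide gene, had 15.5 and 31.2 CPM in Crh-injured neurons and 63.4 and 151 CPM in other injured neurons (-2.16). S100b, a calcium-binding protein gene of glia and of large sensory neurons, had 36.2 and 21.4 CPM in Crh-injured neurons and 150 and 198 CPM in other injured neurons (-2.55). Pcp4l1, Gpx3 and Npy1r were lower by log2 fold changes of -2.62, -2.05 and -2.01. Cartpt, Npy and Gpx3 each lost the call in 1 of 14 settings and Npy1r in 2, and 1 neuron held 72.4% of the Gpx3 and 78.0% of the Npy1r UMIs of the Crh-injured neurons of replicate 1. Hba-a1, Hbb-bs, Dcn, Apod and Isg15 completed the 12 genes with the largest lower fold change. They are genes of red cells, connective tissue and the interferon response. Apod was read in 57.5% and 55.9% of other injured neurons, Hbb-bs in 49.5% and 48.6%, Dcn in 36.8% and 39.5%, Isg15 in 32.5% and 25.9% and Hba-a1 in 13.7% and 11.4%. In Crh-injured neurons the shares were 44.7% and 69.0% for Apod, 55.3% and 48.3% for Hbb-bs and 34.2% and 24.1% for Dcn. They were 26.3% and 13.8% for Isg15 and 10.5% and 10.3% for Hba-a1. The call of Apod was lost in 4 of 14 settings and those of Hba-a1 and Hbb-bs in 3. That of Isg15 was lost in 2 and that of Dcn in 1. The UMIs were unevenly spread, with 98.2% of the Hba-a1 UMIs and 96.8% of the Hbb-bs UMIs of other injured neurons in replicate 2 coming from 1 barcode. Hba-a1 has a near-identical copy, Hba-a2, with which it can share reads.

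Some sensory peptide genes differed between the classes. Calca had 751 and 514 CPM in Crh-injured neurons, against 1628 and 2259 CPM in other injured neurons (log2 fold change -1.60, adjusted p = 0.00631). In Crh-injured neurons 55.3% and 41.7% of the Calca UMIs came from 1 neuron in each library. Calcb and Nmb were also lower, at -1.41 and -1.36. Of 7 tested genes in a list of constitutive sensory peptides 3 were lower, 1 (Penk) was higher and 3 did not pass. Among all genes 3.98% were lower and 3.35% higher. The calls of Calca, Calcb and Nmb were lost without CCI replicate 2. Adcyap1, the gene of the peptide PACAP that rises after axotomy, had 108 and 85.8 CPM in Crh-injured neurons and 346 and 262 CPM in other injured neurons (-1.63, adjusted p = 0.000317). Gal, the galanin gene and the main peptide of injured sensory neurons, was abundant in both classes, with 9238 and 9650 CPM in Crh-injured neurons and 8315 and 9877 CPM in other injured neurons (0.08 ± 0.05 SE, adjusted p = 0.449). Nts and Vgf did not pass the test either. Of 5 tested genes in a list of injury-induced peptides, Npy and Adcyap1 were lower and 0 were higher, beside the same shares of all genes.

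Genes of prohormone processing and dense-core granules passed the test mainly on the lower side, and none of these calls held without CCI replicate 2. Of 12 tested members 6 were lower (Pcsk1, Pcsk2, Pcsk1n, Scg2, Cadps, Cadps2), 1 was higher (Chga) and 5 did not pass, beside 3.98% lower and 3.35% higher among all genes. The median log2 fold change was -0.24 against 0.00093 over all genes. Scg2, which encodes secretogranin II, had 49.7 and 37.6 CPM in Crh-injured neurons and 109 and 133 CPM in other injured neurons (-1.44). Pcsk1, a convertase able to cleave peptide precursors, had 7.94 and 10.9 CPM in Crh-injured neurons and 19.0 and 19.7 CPM in other injured neurons (-1.03). Pcsk2 had 81.8 and 89.5 CPM in Crh-injured neurons and 113 and 118 CPM in other injured neurons (-0.41). Without CCI replicate 2 all 7 calls were lost, and without CCI replicate 1 those of Scg2 and Cadps2 alone were kept. Pcsk1n lost its call in 8 of 14 settings, and Chga, Pcsk1, Pcsk2 and Cadps in 5 to 6.

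Most regeneration-associated genes were not called between the injured classes. The list held 31 genes, part of which the study picked from these same libraries, and 6 of them were higher (Jun, Hspb1, Igfbp3, Camk1, Cdkn1a, Socs3), 3 lower (Gap43, Anxa1, Bdnf) and 22 not called, with a median log2 fold change of -0.01, beside 3.35% higher and 3.98% lower among all genes. All 9 calls were lost without CCI replicate 1, and all but that of Anxa1 without CCI replicate 2. Gap43, a growth cone protein gene, had 1753 and 1886 CPM in Crh-injured neurons and 2759 and 2875 CPM in other injured neurons (-0.61, adjusted p = 0.00172). Camk1, a calcium-dependent kinase gene, had 861 and 877 CPM in Crh-injured neurons and 574 and 514 CPM in other injured neurons (0.70, adjusted p = 0.00262). Cdkn1a, a cell cycle inhibitor gene, had 908 and 1130 CPM in Crh-injured neurons and 659 and 676 CPM in other injured neurons (0.62, adjusted p = 0.00607). Anxa1, which encodes the phospholipid-binding protein annexin A1, had 84.9 and 145 CPM in Crh-injured neurons and 491 and 275 CPM in other injured neurons (-1.68). It was above 0 in 23 of 38 and 22 of 29 Crh-injured neurons, against 96 of 212 and 92 of 220 other injured neurons. Its highest rate was 6.58 and 10.8 per 10000 in Crh-injured neurons, against 85.2 and 35.6 in other injured neurons. The lower sums thus did not come from a smaller share of neurons with an Anxa1 UMI. Without the Sprr1a limit in the comparison neurons, the log2 fold change of Gap43 was 0.31 and that of Anxa1 0.22.

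Against CON neurons, 4242 of 13657 genes passed (31.1%), 1905 higher (13.9%) and 2337 lower (17.1%). Here 28 of the 31 regeneration-associated genes were higher in Crh-injured neurons, 1 (Bdnf) was lower and 2 did not pass, with a median log2 fold change of 4.31 against -0.07 over all genes. Sox11, a transcription factor of growing axons, had 722 and 674 CPM in Crh-injured neurons and 48.2 and 27.7 CPM in CON neurons (4.42). Gpr151, an orphan receptor gene of injured neurons, had 85.6 and 87.2 CPM in Crh-injured neurons and 1.16 and 1.32 CPM in CON neurons (6.35). Fgf3, a growth factor gene, had 52.8 and 69.2 CPM in Crh-injured neurons and 0.0724 and 0.179 CPM in CON neurons (9.18). Gal had 9238 and 9650 CPM in Crh-injured neurons and 201 and 217 CPM in CON neurons (5.72, adjusted p = 1.42e-06). CON neurons are a mixture of all types, so the part of each difference that is injury and the part that is cell type cannot be told apart here. The Atf3 limit also chose neurons for 1 injury gene, so the direction of the genes that accompany it is not independent of the choice.

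**Figure D3:**
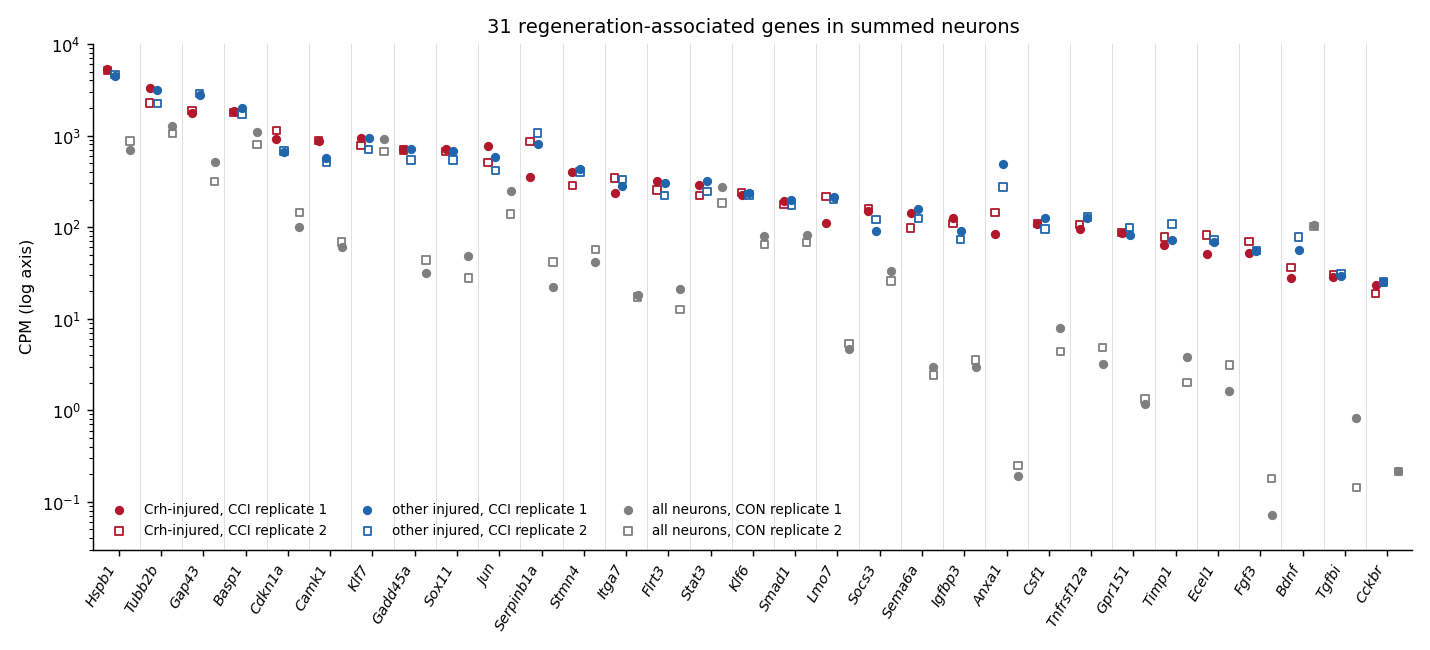
CPM (log axis) of 31 regeneration-associated genes, in order of their mean level in Crh-injured neurons, with Crh-injured neurons in red, other injured neurons in blue and all CON neurons in grey, and 1 symbol for each library. The red and blue symbols lay close together for most genes and above the grey ones, except for Bdnf, Klf7 and Stat3, and 28 of 31 genes were higher in Crh-injured neurons than in CON neurons.

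Ion channel genes were read in both comparisons, of which the one against CON called 31.1% of all genes and the one against other injured neurons 7.33%. Against CON, 8 of 11 voltage-gated sodium channel genes were lower and 0 higher, and of 21 potassium and HCN channel genes 12 were lower, 4 higher and 5 not called, where 17.1% of all genes were lower and 13.9% higher. Scn9a, which encodes a sodium channel of pain fibres, had 141 and 82.4 CPM in Crh-injured neurons and 406 and 322 CPM in CON neurons (log2 fold change -1.48). Kcnk16, a background potassium channel, had 73.5 and 117 CPM in Crh-injured neurons, against 32.5 and 36.8 CPM in other injured neurons and 0.241 and 0.679 CPM in CON neurons. It was higher than in other injured neurons (1.45, adjusted p = 0.00233). Against other injured neurons, 1 of 11 sodium channel genes was higher (Scn3a) and 1 lower (Scn4b), while Kcna1, Kcnip4 and Kcnk16 were higher and Kcns3 lower among 20 tested potassium and HCN channel genes, where 3.35% of all genes were higher and 3.98% lower. All 6 of these calls but that of Kcnk16 were lost without CCI replicate 1, and all 6 without CCI replicate 2. Cacna2d3, an accessory calcium channel subunit gene, had 56.6 and 39.1 CPM in Crh-injured neurons, against 22.1 and 14.8 CPM in other injured neurons (1.40). Piezo2 had 194 and 136 CPM in Crh-injured neurons, against 103 and 69.7 CPM in other injured neurons (0.95, adjusted p = 0.00203). The Piezo2 call was lost in 5 of 14 settings, among them without either CCI replicate, and the log2 fold change was as low as 0.36. Trpv1 had 12.8 and 10.2 CPM in Crh-injured neurons, against 37.0 and 48.1 CPM in other injured neurons (-1.85, adjusted p = 0.00299). The acid-sensing channel gene Asic3 was also lower (-1.70).

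Growth factor and cytokine receptors were called in both directions. Of 15 tested receptor genes 3 were higher (Ntrk3, Gfra2, Il1r1), 4 lower (among them Gfra1, Gfra3 and Lifr) and 8 not called, beside 3.35% higher and 3.98% lower among all genes. Of these 7 calls 5 were lost without CCI replicate 1 and 6 without CCI replicate 2. Gfra1, a receptor of the glial factor GDNF, had 36.2 and 39.9 CPM in Crh-injured neurons, against 85.3 and 90.7 CPM in other injured neurons (-1.19). Gfra2, a receptor of neurturin, had 33.1 and 22.2 CPM in Crh-injured neurons, against 14 and 13.1 CPM in other injured neurons (1.04). The interleukin-1 receptor gene Il1r1 had 28.6 and 22.6 CPM in Crh-injured neurons, against 11.4 and 10.2 CPM in other injured neurons (1.26). The Gfra2 call depends on which neurons serve as comparison, since its log2 fold change was -1.09 without the Sprr1a limit.

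The neurofilament genes Nefh, Nefm and Nefl were lower in Crh-injured neurons, where 3.98% of all genes were lower and 3.35% higher. Nefh, the heavy subunit of myelinated neurons, had 131 and 122 CPM in Crh-injured neurons and 244 and 325 CPM in other injured neurons (-1.14), and Nefm and Nefl were lower by -0.90 and -0.65. Prph, the peripherin gene, did not pass the edgeR quasi-likelihood test (0.21 ± 0.05 SE, adjusted p = 0.0574), and Ina was higher (0.69). The calls of Nefm, Nefl and Ina were lost without CCI replicate 1 and also without CCI replicate 2. That of Nefh was lost without CCI replicate 2. Slc17a7, the vesicular glutamate transporter gene of large neurons, had 3.45 and 1.13 CPM in Crh-injured neurons and 13.4 and 25.2 CPM in other injured neurons (-2.98). Slc17a6, the transporter gene of most sensory neurons, had 168 and 167 CPM in Crh-injured neurons and 234 and 197 CPM in other injured neurons (adjusted p = 0.0614).

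Marker lists of neuron types were then read in the Crh-injured neurons, in a comparison that called 3.35% of all genes higher and 3.98% lower. Of the markers of C-fibre low-threshold mechanoreceptors, unmyelinated touch neurons of hairy skin, Th and Tafa4 were higher than in other injured neurons. Th, the dopamine synthesis enzyme, had 35.2 and 14.3 CPM in Crh-injured neurons and 6.79 and 4.21 CPM in other injured neurons (2.15, adjusted p = 0.00299), and 53.3% of the Th UMIs of other injured neurons in replicate 1 came from 1 neuron. Without the Sprr1a limit in the comparison neurons its log2 fold change was -0.67. Against CON neurons, at 72.0 and 161 CPM, Th was lower (-2.01), and it reached 1 per 10000 in 4 of 38 and 2 of 29 Crh-injured neurons. Slc17a8, the third marker of the list, was too low to be tested, and 37 of 38 and 29 of 29 Crh-injured neurons had 0 UMIs of it. Of 5 markers of the peptidergic PEP1 type 4 were lower (Gpx3, Trpv1, Adcyap1, Calca) and 1 was not called. None of the 3 NP2 markers was tested because all were too low, and of the 5 NP1 markers 1 was lower (Plxnc1). Mrgprd, the NP1 receptor gene, had 2.07 and 0 CPM in Crh-injured neurons and 1.81 and 1.17 CPM in other injured neurons. Of 4 tested large-fibre and proprioceptor markers 2 were lower (Spp1, Vsnl1). The rule set a Pvalb limit on Crh-injured neurons only, and 5 and 13 other injured neurons had Pvalb at 3 per 10000 or more. The direction of large-fibre markers is thus not independent of the choice. With the Pvalb limit also placed on other injured neurons the Spp1 call was lost. After thinning to 8000 UMIs the calls of Spp1 and Vsnl1 were lost. Of 7 myelinated mechanoreceptor markers Ntrk3 was higher, Htr3a lower and 5 not called. Of 16 tested transcription factors of sensory neuron identity 4 were higher (Isl1, Prrxl1, Zfhx3, Casz1), 2 lower (Shox2, Zeb2) and 10 not called, and against CON 15 of 19 were lower (17.1% of all genes) and 0 higher (13.9%). Of the 6 calls against other injured neurons, that of Shox2 alone was kept without CCI replicate 1 and none without CCI replicate 2. Isl1, Prrxl1, Zfhx3 and Casz1 had log2 fold changes from -0.43 to -0.26 without the Sprr1a limit, so their direction depends on which neurons serve as comparison.

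The type of CON neuron that shares these differences was looked for in the CON libraries, which the rule did not use. CON neurons with a single lead gene above a limit of 3 UMIs and 1 per 10000 (50 per 10000 for Tac1) formed 7 classes, and each was tested against the other classes with the library as a block, lead genes left out. These classes were set after the first results had been seen. The Th class held 81 and 31 neurons. Of the 411 genes higher in Crh-injured neurons 385 were tested there, and 248 of these (64.4%) were higher in the Th class, where 13.2% of all tested genes were. They made up 14.6% of the 1702 genes higher in that class, and 17 of the 385 were lower in it. Of the 487 genes lower in Crh-injured neurons 465 were tested there, and 325 (69.9%) were lower in the Th class, where 14.8% of all tested genes were. They made up 17.1% of the 1902 genes lower in that class, and 18 were higher in it.

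The other 6 classes shared fewer of these calls. The genes higher in Crh-injured neurons were also higher in the Mrgprd class in 21.4% of cases (17.2% of all tested genes), in the Mrgpra3 class in 10.7% (7.29%) and in the Nppb class in 10.5% (14.6%). For the Pvalb class the share was 16.7% (10.9%), for the Htr3a class 12.04% (8.89%) and for the Tac1 class 11.8% (13.0%). The genes lower in Crh-injured neurons were also lower in the Mrgprd class in 47.8% (20.6%), in the Mrgpra3 class in 33.1% (11.4%) and in the Nppb class in 39.7% (19.4%). For the Pvalb class the share was 25.9% (10.6%), for the Htr3a class 14.3% (8.13%) and for the Tac1 class 23.6% (15.2%). Under 13 of the 14 alternative settings of the first comparison, the share of genes higher in Crh-injured neurons that were also higher in the Th class ran from 52.4% to 82.8%, and that of the lower genes also lower there from 55.05% to 82.0%. Under the other setting, with no Sprr1a limit in the comparison neurons, the shares were 24.3% and 42.7%, against 22.8% and 41.6% in the Mrgprd class. Without CCI replicate 1 the lower genes were also lower in the Mrgprd class in 61.8% of cases, against 62.9% in the Th class. Without CCI replicate 2 these shares were 66.2% and 74.7%. The higher genes were also higher in the Mrgprd class in 12.2% and 8.62%, against 80.0% and 82.8% in the Th class. The overlap with the Th class thus depends on which neurons serve as comparison, and on the lower side also on the libraries kept. The CON classes and the Crh-injured neurons come from different libraries and share no cells. The counts describe which genes were called in both, and the type of the Crh-injured neurons before injury was not tested.

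**Figure D4:**
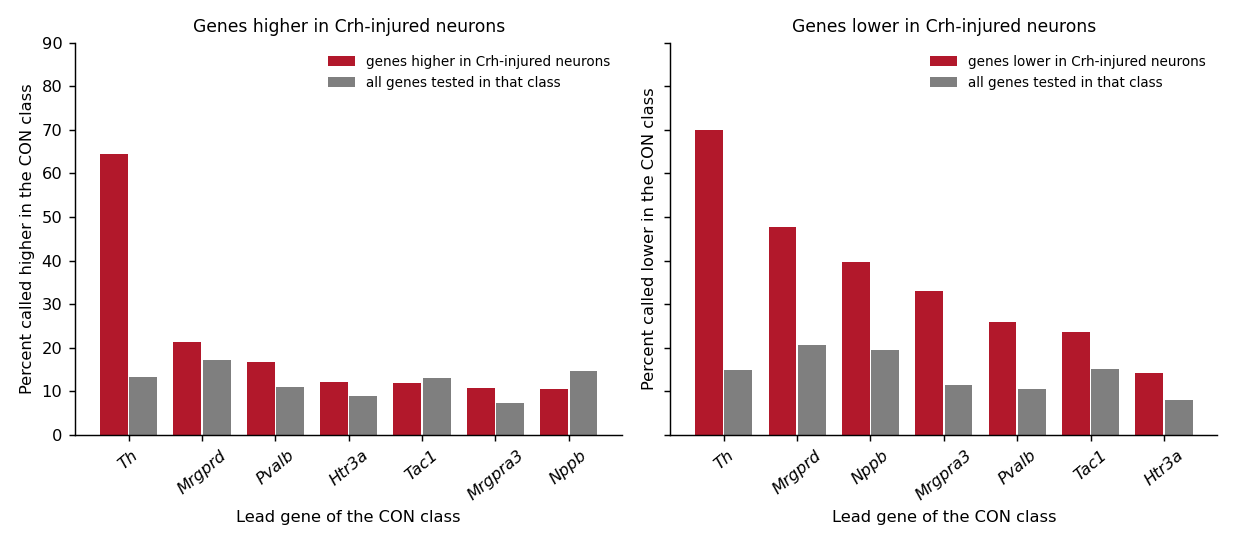
Share (%) of genes higher (left) and lower (right) in Crh-injured neurons that were called in the same direction in each of 7 classes of CON neurons (red), beside the share of all tested genes called that way in that class (grey). In the Th class the red bars were 64.4% and 69.9%, and the grey bars 13.2% and 14.8%.

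Values in the Th class gave the scale. Tafa4 had 199 and 123 CPM in Crh-injured neurons, against 397 and 472 CPM in Th-class CON neurons and 51.0 and 110 CPM in all CON neurons. Fxyd6 had 515 and 484 CPM in Crh-injured neurons, against 578 and 667 CPM in the Th class and 131 and 209 CPM in all CON neurons. Cckar had 163 and 178 CPM in Crh-injured neurons, against 112 and 92.4 CPM in the Th class. Ntrk3 had 153 and 119 CPM in Crh-injured neurons, against 244 and 197 CPM in the Th class. Penk, with 7.57 and 1.71 CPM in the Th class, was called lower there than in the other classed CON neurons. Of those, the Tac1 class had 88.0 and 45.3 CPM, and none of the rest exceeded 2.75 CPM in either library. The lower call of Penk thus rests on the Tac1 class. Slc6a19, at 15.9 and 10.3 CPM in the Th class, was not called. Crh itself had 0 UMIs in the Th class of either CON library.

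Among themselves the Crh-injured neurons were not uniform. Tafa4 reached 1 per 10000 in 26 of 38 (68.4%, exact 95% binomial interval 51.4 to 82.5%) and 16 of 29 (55.2%, 35.7 to 73.6%) of them, against 31 of 212 (14.6%) and 23 of 220 (10.5%) other injured neurons. Ntrk3 did so in 25 and 13 Crh-injured neurons, against 41 and 40 other injured neurons. Fxyd6 was at 1 per 10000 or more in 33 of 38 and 22 of 29 Crh-injured neurons, against 51 of 212 and 55 of 220 other injured neurons. Calca reached 10 per 10000 in 7 of 38 and 3 of 29 Crh-injured neurons, against 70 of 212 and 66 of 220 other injured neurons. Gal reached 10 per 10000 in 31 of 38 and 25 of 29 Crh-injured neurons, against 149 of 212 and 170 of 220 other injured neurons. Read the other way, 45.6% of the injured neurons of replicate 1 with Tafa4 at 1 per 10000 were Crh-injured (26 of 57, 32.4 to 59.3%), and 41.0% of those of replicate 2 (16 of 39, 25.6 to 57.9%). Of the injured neurons with less Tafa4 6.22% (12 of 193) and 6.19% (13 of 210) were Crh-injured.

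**Figure D5:**
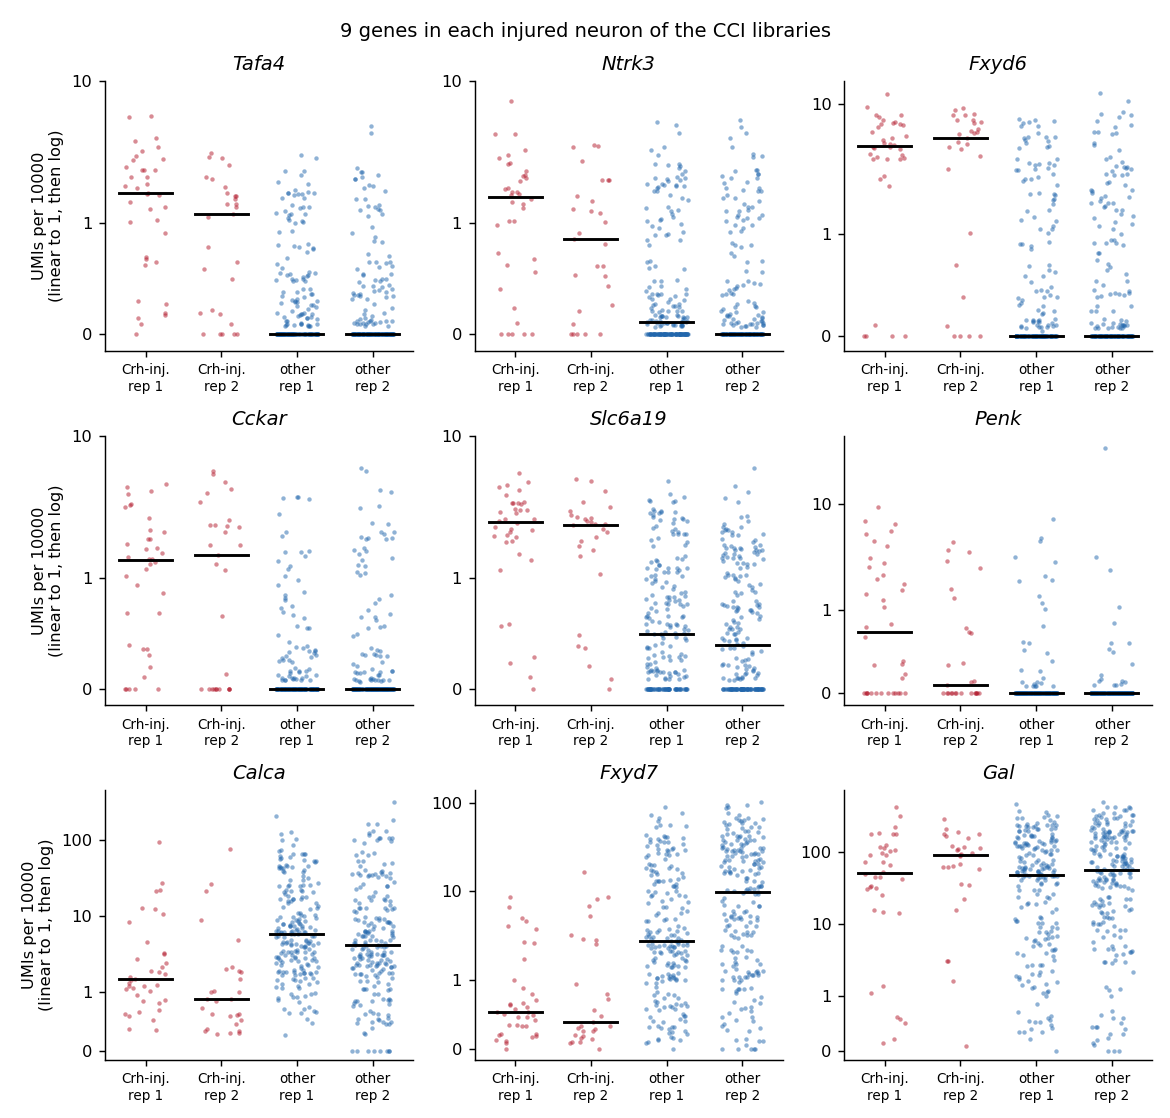
UMIs per 10000 (y axis, linear to 1 and logarithmic above) of 9 genes in each injured neuron of the CCI libraries, Crh-injured neurons in red and other injured neurons in blue, with the median of each class and library as a black bar. Tafa4, Ntrk3, Fxyd6, Cckar and Slc6a19 had higher medians in Crh-injured neurons, and Calca and Fxyd7 lower ones. The median of Gal was 51.2 and 92.0 per 10000 in Crh-injured neurons, against 47.9 and 56.4 in other injured neurons. The cells of the classes overlapped for all 9 genes.

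Sprr1a divided the Crh-injured neurons further. The 27 and 23 Crh-injured neurons at or above 10 per 10000 of Sprr1a had a median Gal of 89.7 and 92.0 per 10000, against 14.3 and 85.7 in the 11 and 6 below it. Median Crh was 5.67 and 4.73 per 10000 at or above the limit, against 6.31 and 11.4 below it. The gap in Gal was thus wide in replicate 1 and narrow in replicate 2, and it was not tested. With the Sprr1a limit also placed on Crh-injured neurons, 904 genes passed the first comparison, of which 754 were among the 898.

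RNA of other cells moved with some of the results, among them the lower Dcn, Apod and haemoglobin genes. Satellite glia and Schwann cell markers, 10 genes, summed to 1093 and 1081 CPM in Crh-injured neurons, 1147 and 1189 CPM in other injured neurons, and 992 and 1159 CPM in CON neurons, and none of the 10 was at 0 in Crh-injured neurons. The immune, vessel and connective tissue markers, 18 genes, summed to 178 and 166 CPM in Crh-injured neurons, 105 and 815 CPM in other injured neurons, and 408 and 300 CPM in CON neurons. Of 15 tested, 5 were lower in Crh-injured neurons (Dcn, Lum, Col1a1, Hbb-bs, Hba-a1) and 2 higher (S100a8 and Rgs5), beside 3.98% lower and 3.35% higher among all genes, with Dcn at 5.52 and 3.38 CPM against 33.2 and 157 CPM in other injured neurons. Rgs5, listed as a pericyte gene, was also read in CON neurons, with 493 and 552 CPM in the Th class against 91.1 and 165 CPM in all CON neurons, and it was higher in the Th class than in the other classed CON neurons (log2 fold change 4.35). Without CCI replicate 2 the calls of Dcn and Rgs5 alone were kept. Of the UMIs of S100a8, a neutrophil gene, 90.4% in the Crh-injured neurons of replicate 2 came from 1 neuron. Keeping only neurons with Dcn and Isg15 each under 1 per 10000, an alternative added after the data were seen, 1807 genes passed, and 881 of these were among the 898. Their part in the differences between the neuron classes was not tested.

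Stress genes were read for the same reason. Of 10 immediate early and dissociation stress genes 3 were lower in Crh-injured neurons (Fos, Fosb, Hspa1b) and 7 did not pass, where 3.98% of all genes were lower, and reads of Hspa1b cannot be separated from its near-identical copy Hspa1a. Of 12 genes of the integrated stress response, p53 and cell death, 3 were higher than in other injured neurons (Chac1, Atf5, Pmaip1) and 9 did not pass, where 3.35% of all genes were higher. All of these 6 calls were lost without CCI replicate 1 and also without CCI replicate 2. Against CON 11 of these 12 were higher (13.9% of all genes) and 0 lower, among them Ddit3 at 79.7 and 92.5 CPM in Crh-injured neurons and 52.8 and 40.9 CPM in CON neurons.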

How the data were processed

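Left L4-5 DRGs were dissociated and run as 10x 3′ libraries (v3.1 chemistry per the study's methods), and the authors deposited 1 matrix of UMI counts per library, aligned to mm10 with Cell Ranger. The matrices still held 13 mitochondrial genes among 31253, so the removal of these genes that the study describes had not been applied to them. Doublets were not called. The submitters' notes also name CASAVA 1.8 and Seurat. Raw UMIs were summed per library and class without mitochondrial genes. CPM values are per 1000000 UMIs of these sums, and rates per cell are per 10000 UMIs of the cell. Sums were tested with edgeR 4.0.16 in R 4.3.3 (quasi-likelihood test, TMM factors, filterByExpr, Benjamini-Hochberg adjustment over all genes tested, threshold 0.05), with the library as a block between classes of CCI neurons and without a block against CON. Genes of the selection rule were left out of the tests. Both classes of a CCI library come from the same cell suspension, so the library pairs them, and their deviations correlated at 0.193 over 12221 genes.

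The cells, gene lists and comparisons were chosen with earlier results of these data known. Genes named were the CRH family, the 12 largest log2 fold changes per direction among called genes whose mean log2 CPM was 5 or more and which lay on the same side in both libraries, and up to 6 genes of each list by adjusted p. Anxa1, Socs3, Hspb1, Sox11, Gpr151, Fgf3, Scn9a, Lifr, Pcsk1n and Ddit3 were named after their values were seen. On simulated counts 77% of 2-fold and 97% of 4-fold changes were recovered in the first comparison (12011 genes), and 43% and 97% against CON (13377 genes). The 200 changed genes all had a mean above 5 CPM, so these rates do not cover weaker genes. The simulated counts held no library differences and no single neurons with most UMIs of a gene. Alternatives were DESeq2 1.42.0, other factors and filters, thinning, other limits, and leaving out each library. Coordinates come from RefSeq's GRCm38.p6 gene table, matched by symbol. Some genes that the rule named are not reported here.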

Additional observations from a re-analysis of the deposited data

Results flagged for a closer look

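Crh and Ucn UMIs lay outside the neurons, in barcodes that the comparisons did not use. Of the non-neuron barcodes with at least 8000 UMIs 1.45% in CCI replicate 1 and 0.542% in CCI replicate 2 held a Crh UMI, against 0 of 379 and 0.0897% in CON. Ucn gave 399 UMIs in CCI replicate 1 and 104 UMIs in CCI replicate 2 over the 6 non-neuron classes, against 1 and 0 UMIs in CON. Their source was not tested.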

How the results depend on the processing

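Between Crh-injured and other injured neurons 898 genes passed, against 376 with DESeq2, 179 with no replicate block, 149 to 224 with 1 CCI library left out and 121 with every cell thinned to 8000 UMIs. More passed with no filter on low counts (1807), with Pvalb under 3 per 10000 in other injured neurons (1512), with Crh at 0 UMIs there (1451), with no Sprr1a limit there (4108) and with Dcn and Isg15 each under 1 per 10000 (1807, chosen after seeing the data). The share of higher calls was 45.8%, and 24.1% without CCI replicate 1. Against CON neurons 4242 genes passed and 1450 with every cell thinned. The library numbers do not pair CON with CCI samples (correlation of same-numbered deviations 0.0545), and with the replicate block 4554 genes passed. The share of CCI neurons that were Crh-injured was 2.76%, and 1.96% after thinning. With 1 CCI library left out, the fit also held the CON sums, and the lone sums were assumed to vary like them.

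Without the Sprr1a limit the log2 fold change against other injured neurons changed sign for Vgf (0.057), Nts (0.79), Gap43 (0.31), Anxa1 (0.22), Th (-0.67), Gfra3 (0.029), Gfra2 (-1.09), Prrxl1 (-0.43), Zfhx3 (-0.43), Casz1 (-0.26) and Isl1 (-0.34). Isl1 was also -0.083 after thinning. Nts was 0.051 without CCI replicate 1 and -0.87 without CCI replicate 2, and Gal -0.049 without replicate 1 and 0.11 without replicate 2. The cause was not tested for any of these. With 38 and 29 neurons and 2897988 and 2658893 UMIs per sum, genes under about 1 CPM could not be assessed in Crh-injured neurons.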

Other observations

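Ucn2, which encodes urocortin 2, had 0 UMIs in Crh-injured neurons but was present in other cells of the ganglion. Over the 6 non-neuron classes it gave 21 and 157 UMIs in CCI and 9 and 33 UMIs in CON, and its highest level in a class was 1.38 and 48.4 CPM in CCI and 1.48 and 25.8 CPM in CON. Both groups thus had 1 library with a high level and 1 with a low level.

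Lxn, the gene of the carboxypeptidase inhibitor latexin, was read in every Crh-injured neuron. Its lowest, median and highest rates were 0.942, 10.9 and 27.2 per 10000 in CCI replicate 1 and 0.279, 8.36 and 23.8 in CCI replicate 2. In other injured neurons the medians were 3.03 and 3.50 per 10000, and the ranges of the classes overlapped in both libraries. Lxn was named after its values were seen.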
